A study of Mus musculus with 4 samples.

Results

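Epithelial lineage transcription factors are the 10 genes Trp63, Sox2, Nkx2-1, Foxa1, Foxa2, Spdef, Elf3, Grhl1, Grhl2 and Klf5, followed here across whole mouse trachea and oviduct. They were taken by name, as the factors of basal cells, secretory cells and airway epithelium in general, with earlier results of these data known. All 10 were found among 30675 named genes, each read by 1 probe set, a set of array probes summarised as 1 value. The samples were a trachea from a wild-type (WT) mouse, a trachea from a mouse labelled null for Gemc1 (current symbol Gmnc), a WT oviduct and a Gemc1-null oviduct, with 1 Affymetrix array each. Both tracheas came from males aged 39 days and both oviducts from females aged 65 days, all on a mixed C57BL/6 x 129 background and untreated. The labels call the animals null, with the deleted part not given in the sources used here.

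Basal cells are the stem cells of the tracheal lining. The p53 relative p63, encoded by Trp63, is known to maintain them, and the HMG-box factor Sox2 to sustain their ability to form secretory and ciliated cells. The homeobox factor Nkx2-1 sets respiratory identity, the forkhead factors Foxa1 and Foxa2 act in airway and glandular epithelium, and the Ets factor Spdef drives mucous cell differentiation. Elf3, another Ets factor, the grainyhead-like factors Grhl1 and Grhl2 and the Krüppel-like factor Klf5 serve many epithelia, where Grhl2 is known to sustain junction genes such as Cdh1. Gmnc starts the programme of multiciliated cells, which arise from the same progenitors.

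Levels are log2 RMA signals, where 1 unit is a 2-fold step, and a difference is called at 2-fold. Each group had 1 array, so no difference within a tissue or genotype carries a replicate check, an error or a p-value. The median level over all probe sets was 5.91 to 6.00. The 5222 negative-control probe sets had medians of 5.74 to 5.98 and a 95th percentile of 8.70 to 8.87. By that wide background, 1 or 2 of the 10 factors exceeded the 95th percentile on each array, and low levels have little meaning. Over probe sets the correlation was r = 0.945 within trachea and r = 0.979 within oviduct, and between tissues it was r = 0.948 for WT and r = 0.943 for the null-labelled arrays, so the trachea arrays were about as far from each other as from oviduct. The targeted gene Gmnc stood at 5.90 in WT and 4.63 in null-labelled trachea, but at 6.11 in WT and 8.86 in null-labelled oviduct. Both trachea values lay below the negative-control median of their array, 5.98 and 5.74, so they cannot show a loss of Gmnc. The value in null-labelled oviduct goes against its label if the probes lie in the deleted part, so directions below rest on the labels. Tissue marker lists were read in every array. Of 15 airway secretory genes, 14 exceeded the 95th percentile of negative controls in WT trachea and 3 in null-labelled trachea, while oviduct secretory genes gave 3 and 4 of 6 on the oviduct arrays. In whole tissue, fewer cells of a type and less RNA per cell cannot be told apart.

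**Figure D1:**
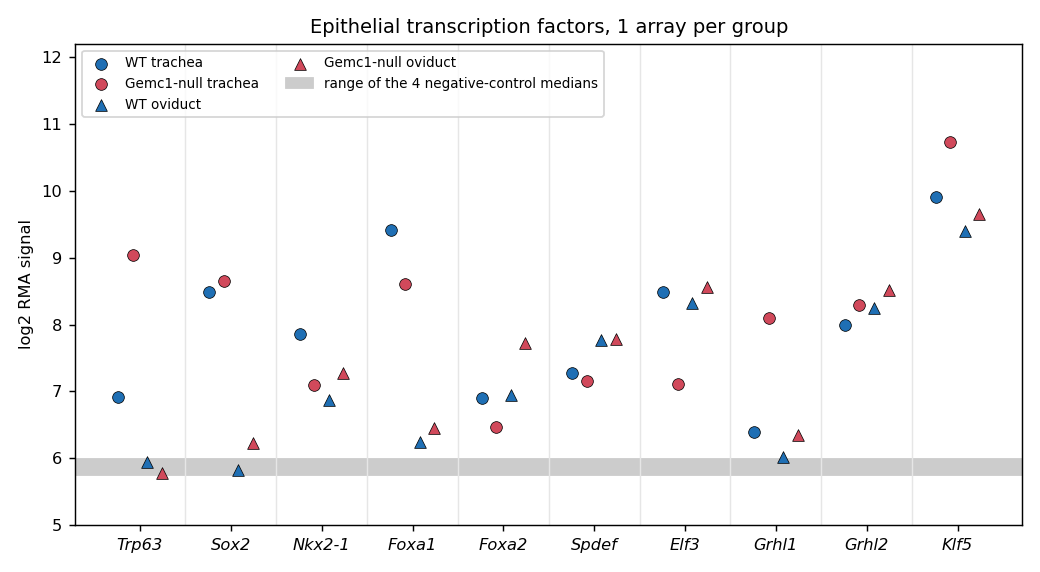
Log2 RMA signal (vertical axis) of each factor on the 4 arrays, 1 point per array, circles for trachea and triangles for oviduct, WT in blue and Gemc1-null in red. The grey band spans the negative-control medians of the 4 arrays, 5.74 to 5.98. Trp63 and Grhl1 stand highest on the null-labelled trachea array, and Trp63, Sox2, Foxa1 and Grhl1 lie near the band in oviduct. Levels of different genes come from different probes and are not comparable.

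The trachea comparison asks how the airway factors read on the array labelled null for Gmnc. Trp63 and Grhl1 were higher on the null-labelled array, by 4.33-fold and 3.25-fold, and Elf3 was 2.61-fold lower. The other 7 factors differed by less than 2-fold. So 2 of 10 factors were at least 2-fold higher, against 6.34% of the 20142 genes past the level filter, and 1 of 10 was at least 2-fold lower, against 7.75%. The median difference was 0.02 over the 10 factors and 0.03 over all genes tested. No test sets these shares apart from the background. Over all genes 1560 were lower and 1276 higher, a split that becomes 527 and 12025 when differences are centred on 11 general epithelial genes. Those genes, including Krt8, Krt18 and Epcam, had a median difference of -1.07 in trachea. Centring on them therefore raises every trachea difference by 1.07. Their own differences ran from -3.10 for Muc1 to 0.42 for Cldn4. Another list, of epithelial junction genes, had a median of 0.13, so the size of this shift depends on the list.

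Among the basal factors, Trp63 (NCBI gene 22061) read 6.92 in WT and 9.03 in null-labelled trachea, and 5.94 in WT and 5.77 in null-labelled oviduct. It was high on 1 array, intermediate in WT trachea and at background in oviduct, where the last value did not reach the negative-control median of 5.79. The trachea difference of 2.11 lay at percentile 98.0 of all genes tested. Isoforms of Trp63 are not separated by its single probe set. Sox2 (NCBI gene 20674) read 8.49 and 8.65 on the WT and null-labelled trachea arrays, and 5.82 and 6.22 on the oviduct arrays. Both trachea arrays were high and both oviduct arrays near background, with a trachea difference of 0.16. Sox2 lies inside the noncoding gene Sox2ot, and the files do not say whether its probes read that transcript too.

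The respiratory and secretory factors leaned the other way in trachea, each by less than 2-fold. Nkx2-1 (NCBI gene 21869) read 7.85 in WT and 7.09 in null-labelled trachea, then 6.87 and 7.27 in WT and null-labelled oviduct. WT trachea was the highest of these arrays. Foxa1 (NCBI gene 15375) read 9.41 and 8.60 in trachea and 6.23 and 6.46 in oviduct, in the same order of genotypes. Both trachea arrays lay above both oviduct arrays. Foxa2 (NCBI gene 15376) read 6.91 and 6.46 in trachea and 6.95 and 7.73 in oviduct, with null-labelled oviduct the highest. Spdef (NCBI gene 30051) read 7.28 and 7.16 in trachea and 7.77 and 7.78 in oviduct, the narrowest set after Grhl2. The trachea differences were -0.76 for Nkx2-1, -0.81 for Foxa1, -0.44 for Foxa2 and -0.12 for Spdef, and centred on the general epithelial genes they turned to 0.31, 0.26, 0.63 and 0.95.

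Of the pan-epithelial factors, Elf3 (NCBI gene 13710) read 8.49 on the WT and 7.11 on the null-labelled trachea array, and 8.33 and 8.56 on the WT and null-labelled oviduct arrays. The null-labelled trachea array alone was low. Its difference of -1.38, at percentile 5.21 of all genes, became -0.31 after centring on the general epithelial genes, which ends the 2-fold call but not the direction. Grhl1 (NCBI gene 195733) read 6.39 and 8.09 in trachea and 6.02 and 6.35 in oviduct, so that the null-labelled trachea array alone was high. Its difference of 1.70 lay at percentile 97.2. Grhl2 (NCBI gene 252973) read 7.99 and 8.29 in trachea and 8.25 and 8.52 in oviduct, the narrowest spread of the 10 factors at 0.53. Klf5 (NCBI gene 12224) read 9.90 and 10.73 in trachea and 9.40 and 9.66 in oviduct, above the 95th percentile of negative controls on all 4 arrays. The trachea difference was 0.31 for Grhl2 and 0.83 for Klf5, and the first passes 2-fold at 1.38 and the second at 1.90 once centred on general epithelial genes. The differences of Grhl1 and Grhl2 in trachea were thus unequal, 1.70 against 0.31.

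**Figure D2:**
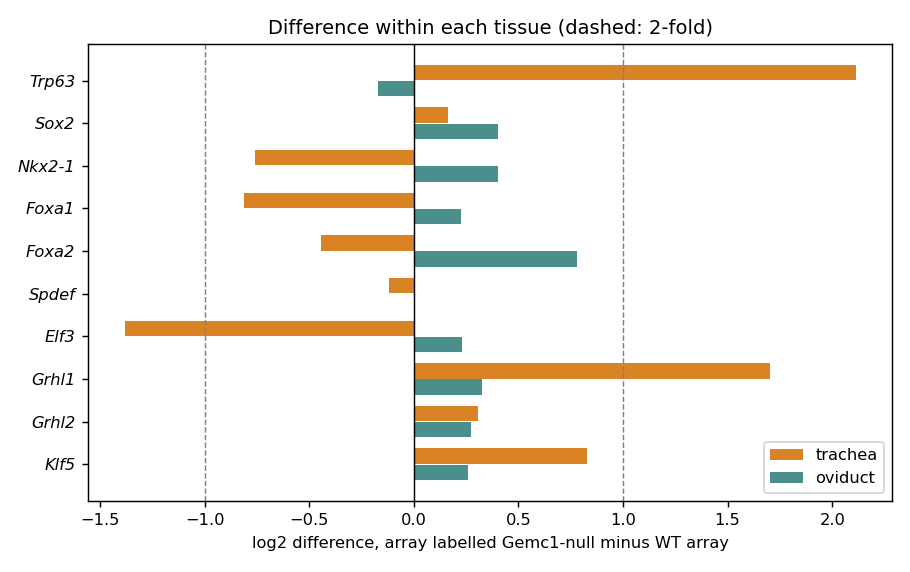
Log2 difference of each factor (horizontal axis), null-labelled minus WT array, in trachea (orange) and oviduct (green), 1 array per group and no error bars. Dashed lines mark 2-fold. In trachea Trp63 at 2.11 and Grhl1 at 1.70 lie above and Elf3 at -1.38 below them, while centring on general epithelial genes would turn Nkx2-1, Foxa1, Foxa2 and Spdef above 0 there. All oviduct bars stay within 2-fold.

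Transcription factors outside the 10 were read from lists chosen with earlier results known. Of 20 paralogs of the 10 factors past the filter in trachea, 1 was at least 2-fold higher and 3 lower (median 0.18). The higher one was Grhl3, a grainyhead-like factor of stratified epithelium, at 6.36 on the WT and 9.76 on the null-labelled array, 10.5-fold apart. The lower ones were the Ets factors Elf4 at -1.73 and Elf1 at -1.23 and the Krüppel-like factor Klf2 at -1.27, which are also known from blood and vessel cells. Of 20 other epithelial factors, 9 were at least 2-fold higher and 1 lower (median 0.65), led by Sox15 at 2.57, Barx2 at 2.27 and Tfap2a at 7.09 in WT and 9.08 in null-labelled trachea. Sox15, Isl1 and Tfap2c, all among the higher ones, were under the negative-control median in WT trachea, so background limits their differences. Sox15 and Isl1 passed the level filter through the null-labelled array alone.

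Genes known to mark basal cells stood with Trp63. In trachea 18 of 26 basal genes were at least 2-fold higher and 0 were lower (median 1.18), among them Pkp1, a desmosome protein, at 6.66 on the WT and 10.87 on the null-labelled array. The basal keratin genes Krt14 and Krt5 differed by 3.78 and 3.02. The hemidesmosome collagen Col17a1 differed by 2.38, while Ngfr at 0.00, Krt17 at -0.06 and Pdpn at -0.27 did not follow. Markers of other tissue moved on the same array: 17 of 18 squamous genes and 10 of 10 skeletal muscle genes were at least 2-fold higher. Many of them, such as Krtdap and Myh1, passed the level filter through the null-labelled array alone, which favours higher calls. The squamous genes Ivl, Krt1 and Rhcg, left out by the filter, differed by 0.14, 0.50 and 0.11. Over 21 squamous genes on the array the median level was 5.53 in WT and 9.67 in null-labelled trachea, with levels from 3.82 to 8.36 and from 4.98 to 13.48. Below the negative-control median lay 13 of these genes in WT and 1 in null-labelled trachea. Skeletal muscle genes had a median level of 5.73 in WT and 12.39 in null-labelled trachea, with 6 of 10 and 0 of 10 below the negative-control median. Trp63, Grhl1, Grhl3 and Klf5 are all known from squamous epithelium, and the part of that tissue or of muscle in their levels was not tested.

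Junction genes of epithelium were divided in trachea. Of 23 past the filter, 9 were at least 2-fold higher and 3 lower (median 0.13). The higher ones included the desmosomal and cornified-layer genes Dsc2 at 2.40, Ppl at 2.27 and Dsp at 2.18, besides Prom2 at 2.37. The splicing regulators Esrp1 and Esrp2 stood at 1.31 and 1.19. The lower ones were Cldn3 at -1.70, Epcam at -1.07 and Cldn7 at -1.06. All 3 belong to the general epithelial genes themselves, so centring on that list cannot check them. Cdh1, which encodes E-cadherin, read 9.89 and 9.65, a difference of -0.25, next to 0.31 for Grhl2.

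Secretory genes had larger differences in trachea than the secretory factors did. Of 15 airway secretory genes 14 were at least 2-fold lower in null-labelled trachea (median -4.47), and of 14 goblet cell genes past the filter 11 were (median -1.50), with 0 higher in either list. The mucin gene Muc5b differed by -4.97, from 11.65 to 6.69, beside -0.12 for Spdef. Agr2, a disulphide isomerase of mucous cells, read 9.46 and 5.70. The goblet factor Foxa3 stood at -0.06. In lung alveoli, where Nkx2-1 and the Foxa factors are also known to act, 8 of 11 marker genes passed 2-fold on the lower side (median -2.05). Their median level was 8.88 in WT and 6.51 in null-labelled trachea. Sftpc, a surfactant gene, read 10.60 and 5.50, the second below the negative-control median. Of thyroid genes, the other site of Nkx2-1, 0 of 5 past the filter differed by 2-fold, and Tg read 5.89 on both trachea arrays. All 7 lymphocyte genes passed 2-fold on the lower side, with a median level of 9.07 in WT and 5.76 in null-labelled trachea. The part of these cells in the lower Nkx2-1, Foxa1 and Elf3 levels was not tested.

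**Figure D3:**
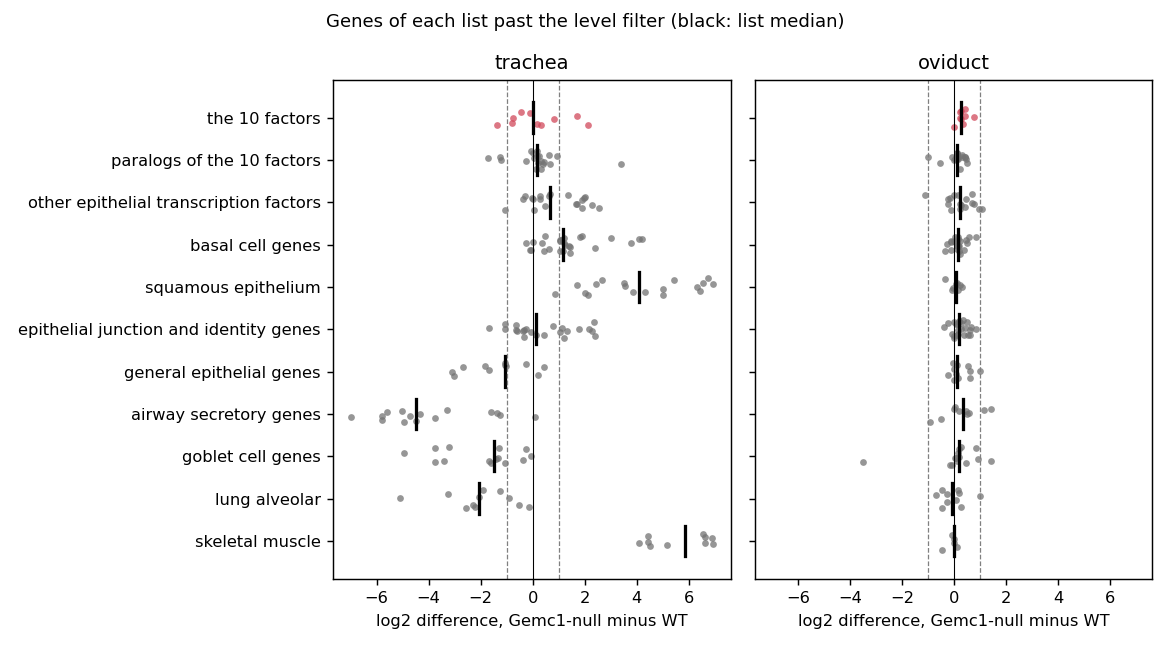
Log2 differences (horizontal axis), null-labelled minus WT array, of the genes of each list that passed the level filter, in trachea (left) and oviduct (right), with 1 point per gene and a black bar at the list median. The 10 factors are in red. In trachea the basal and squamous medians lie at 1.18 and 4.10 and the airway secretory median at -4.47, while in oviduct the medians of the lists drawn lie between -0.09 and 0.33. Centring on general epithelial genes moves every trachea point up by 1.07.

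The oviduct comparison puts the question to a tract with no airway programme. None of the factors differed by 2-fold: 0 of 9 past the filter were higher, against 0.813% of 19692 genes, and 0 were lower, against 2.75%. All 9 lay above 0 as deposited, as did most genes tested, since Spdef at 0.00 lay at percentile 40.5. The median over the 10 factors was 0.27, against 0.05 over all genes tested. Spdef turned to -0.09 when centred on the general epithelial genes. Foxa2, which is known from uterine glands as well as airways, had the largest difference at 0.78 (1.72-fold), at percentile 98.5. Nkx2-1 and Sox2 followed, each at 0.40, then Grhl1 at 0.33, Grhl2 at 0.27, Klf5 at 0.26, Elf3 at 0.23 and Foxa1 at 0.22. Spdef differed by 0.00 and Trp63, at background, by -0.17. Those shifts are of the size that 1 array per group cannot place beyond error.

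The epithelial lists that differed widely in trachea differed less in oviduct. Of 10 airway secretory genes past the filter 2 were at least 2-fold higher, Agr2 at 1.43 and Scgb3a1 at 1.16, and 0 lower (median 0.33). Of 24 basal genes 0 differed by 2-fold (median 0.14), and of 8 squamous genes 0 (median 0.09). Epithelial junction genes gave 0 of 24 (median 0.19) and general epithelial genes 0 of 11 (median 0.10). Of 14 goblet cell genes 1 was at least 2-fold higher, again Agr2, and 1 lower, Agr3 at -3.49, the latter also at -3.77 in trachea. Of 18 motile cilia genes, the programme that Gmnc starts, 17 were past 2-fold on the lower side in each tissue (medians -3.44 and -3.55). In oviduct 6 of 7 ovary somatic genes were also at least 2-fold lower. Their median level was 9.94 in WT and 6.36 in null-labelled oviduct. The part of ovarian tissue in the oviduct levels of the factors was not tested. On the oviduct arrays the 9 factors past the filter lay within 2-fold, near the background shares of 0.813% higher and 2.75% lower. Trp63, Sox2, Foxa1 and Grhl1 stood near background there, so a lower level could hardly be seen. The paralog Trp73, which encodes p73, a factor of multiciliated cells, was the only paralog of 20 past 2-fold in oviduct. That call lay close to the threshold, at -1.02, from 7.88 in WT to 6.86 in null-labelled oviduct, where 2.75% of all genes were lower. In trachea Trp73 read 7.58 in WT and 7.74 on the null-labelled array, a difference of 0.17.

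Trachea was then set against oviduct within each genotype, a comparison in which tissue, sex and age cannot be told apart. On the WT arrays Foxa1 was 9.06-fold and Sox2 6.33-fold higher in trachea, the only factors past 2-fold. They make 2 of 10, against 6.54% of 19959 genes higher and 4.66% lower. Trp63 and Nkx2-1 fell just short, at differences of 0.98 each. Klf5 differed by 0.51, Grhl1 by 0.37 and Elf3 by 0.17. Foxa2 at -0.04, Grhl2 at -0.26 and Spdef at -0.50 were as high or higher in oviduct, and the first 2 turn above 0 when centred on general epithelial genes. The levels of Sox2 in oviduct, 5.82 and 6.22, sat beside negative-control medians of 5.77 and 5.79, so its fold is limited by background.

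On the null-labelled arrays 5 of 10 factors were at least 2-fold higher in trachea, against 6.83% of 20077 genes, and 2 were lower, against 6.12%. Trp63 was at least 9.47-fold higher, a bound taken against the negative-control median of the oviduct array. Sox2 was 5.38-fold, Foxa1 4.43-fold, Grhl1 3.35-fold and Klf5 2.11-fold higher. Elf3 and Foxa2 were lower in trachea, by 2.73-fold and 2.40-fold, and both turned to higher, at 0.67 and 0.86, when centred on general epithelial genes, whose own median was -2.12 here. Spdef at -0.62, Grhl2 at -0.23 and Nkx2-1 at -0.18 stayed within 2-fold, and with that centring all 3 turned above 0, Grhl2 to 1.89 and Nkx2-1 to 1.94. Sox2 and Foxa1 were thus past 2-fold in both genotypes. By size, all factors except Foxa2 and Sox2 differed more between genotypes in trachea than in oviduct, Grhl2 and Spdef only slightly. The null-labelled trachea array also held the squamous and muscle genes described above, whose part was not tested. Foxa2 differed more in oviduct, by 0.78 against -0.44, and so did Sox2, by 0.40 against 0.16. Among paralogs on the WT arrays, Klf2, Elf4 and Klf4 were higher in trachea, by 3.81-fold, 3.07-fold and 2.04-fold, and the Ets factor Ehf was 2.77-fold higher in oviduct.

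**Figure D4:**
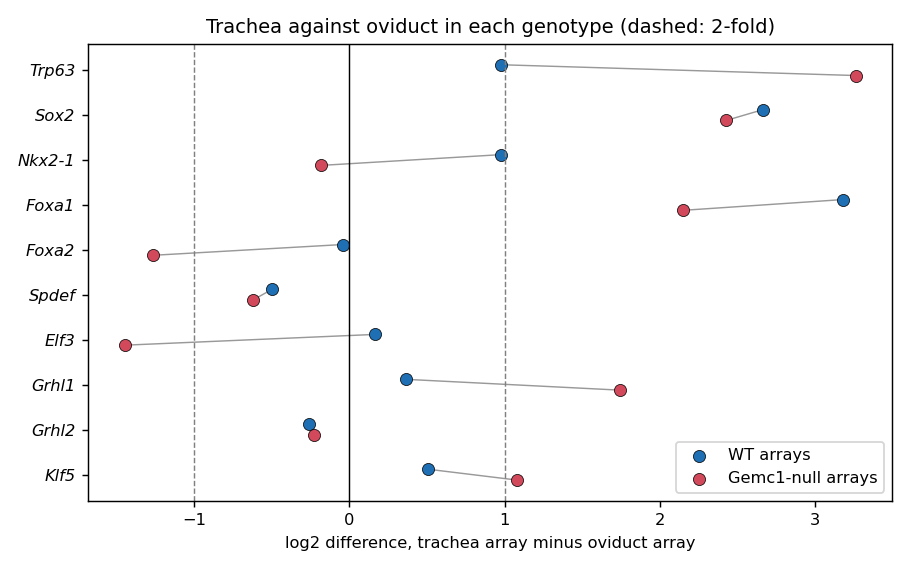
Log2 difference of each factor (horizontal axis), trachea minus oviduct array, on the WT arrays (blue) and the null-labelled arrays (red), 1 array per group, with a grey line joining the 2 values. Dashed lines mark 2-fold. Sox2 and Foxa1 lie beyond 2-fold in both genotypes, while Elf3 and Foxa2 lie below -1 only on the null-labelled arrays, where centring on general epithelial genes would turn them above 0.

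A single fit over the 4 arrays asked for a genotype difference shared by the tissues and a tissue difference shared by the genotypes. It had 2 arrays a side and 1 residual degree of freedom. Its residual is the disagreement between tissues in the genotype difference, so the SE and p-values do not measure variation between animals. For genotype, 0 of 10 factors and 0 of 20971 genes (0% lower and 0% higher) passed the limma adjusted p of 0.05, and at an unadjusted p under 0.05 there were 566 genes lower, 169 higher and 0 of the factors. The fitted genotype difference is a mean over the tissues. It was 1.01 for Grhl1 (SE 0.44), 0.97 for Trp63 (SE 0.70) and 0.54 for Klf5 (SE 0.23), each with a limma adjusted p of 0.829. For Trp63 that mean joins 2.11 in trachea and -0.17 in oviduct. Trp63 was at background in oviduct, so these values cannot show whether the difference was shared. For tissue, 0 factors and 0 genes passed in limma, with 1557 genes lower and 803 higher in trachea at an unadjusted p under 0.05. Among those were 4 factors: Sox2 at 2.54 (SE 0.16, limma adjusted p = 0.289), Foxa1 at 2.66 (SE 0.34, limma adjusted p = 0.337), Spdef at -0.56 and Klf5 at 0.79. Sox2 was higher in both trachea arrays than in both oviduct arrays, and so was Foxa1. A fit of this size does not show that a factor is unchanged.

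Start-site sequence was read as a description, and any part it has in the tissue differences was not tested. Forkhead and Sox factors are known to act on their own genes. RefSeq promoter windows of GRCm38.p6 were given for 7 of the 10 factors, with 10 start sites in all. The 250 bases upstream were searched on both strands for a forkhead motif (TGTTTAC or TATTTAC), a Sox motif (CCTTTGT), a Grhl motif (AACCNGTT) and a Klf motif (CCACNCCC). Shown are the 2 factors at least 2-fold higher in trachea in both genotypes, Sox2 (chr3:34649745-34649994, plus strand) and Foxa1 (chr12:57546112-57546361, minus strand). The secretory factor Spdef (chr17:27728952-27729201, minus strand) is shown too. A pair past 2-fold in opposite directions in trachea follows, Elf3 (chr1:135258473-135258722, minus strand) and the upstream start site of Grhl1 (chr12:24572037-24572286, plus strand). Each is printed 5′ to 3′ on the gene's strand, with forkhead, Sox and Grhl matches in capitals.
Sox2: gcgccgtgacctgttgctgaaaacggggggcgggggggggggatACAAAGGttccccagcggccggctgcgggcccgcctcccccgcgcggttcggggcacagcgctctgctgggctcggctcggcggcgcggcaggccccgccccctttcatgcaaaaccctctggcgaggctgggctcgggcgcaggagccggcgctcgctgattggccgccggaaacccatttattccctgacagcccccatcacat
Foxa1: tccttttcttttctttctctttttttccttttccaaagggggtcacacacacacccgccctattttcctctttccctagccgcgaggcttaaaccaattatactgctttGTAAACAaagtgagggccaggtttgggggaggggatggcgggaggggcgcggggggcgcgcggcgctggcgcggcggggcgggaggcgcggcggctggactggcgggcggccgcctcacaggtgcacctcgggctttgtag
Spdef: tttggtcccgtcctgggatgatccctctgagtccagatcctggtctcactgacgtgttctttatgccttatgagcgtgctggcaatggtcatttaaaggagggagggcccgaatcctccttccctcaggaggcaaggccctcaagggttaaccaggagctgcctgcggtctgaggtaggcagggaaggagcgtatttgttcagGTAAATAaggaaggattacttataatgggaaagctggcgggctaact
Elf3: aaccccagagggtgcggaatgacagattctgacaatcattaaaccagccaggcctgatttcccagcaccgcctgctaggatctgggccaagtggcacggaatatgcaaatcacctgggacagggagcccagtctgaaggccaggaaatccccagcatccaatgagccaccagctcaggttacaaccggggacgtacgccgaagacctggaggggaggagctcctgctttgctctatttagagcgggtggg
Grhl1: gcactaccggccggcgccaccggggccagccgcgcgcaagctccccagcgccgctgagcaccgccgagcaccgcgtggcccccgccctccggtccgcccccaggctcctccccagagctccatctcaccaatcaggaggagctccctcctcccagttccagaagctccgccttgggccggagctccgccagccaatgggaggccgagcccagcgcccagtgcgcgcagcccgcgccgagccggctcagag

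The Foxa1 window holds a forkhead word 141 to 135 bases before its start site, and Spdef holds one 47 to 41 bases before. Sox2 holds a Sox word 206 to 200 bases before its start site. Of 32851 promoter windows of this length, 5.76% hold a forkhead word, 5.08% a Sox word, 1.79% a Grhl word and 15.9% a Klf word. No Grhl word is in any of the 10 windows, and Klf words are in 2 of the Foxa2 windows only. The letters G and C make up 75.6% of the printed Grhl1 window and 72.0% of that of Sox2, against a median of 52.4% over all windows. A match is a description of letters, not evidence of binding.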

How the data were processed

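Whole trachea and oviduct RNA was hybridised to 1-colour Affymetrix arrays. Per the submitters' processing notes the authors used RMA, which corrects background, quantile-normalizes and summarises probes as log2 values (version not given in the sources used here). A further log2 was found in the deposited values: raising 2 to each value gave at most 6 significant digits for 100% of entries (relative tolerance 1e-09), against 0.044% as deposited. Levels here are 2 to that power. Of 72688 probe sets, 31220 had 1 gene in the platform annotation, with symbols updated through RefSeq (GRCm38.p6), and the brightest probe set stood for a gene. The level filter was the array median (percentile 50) on at least 1 of the 2 arrays compared. Differences of 2-fold were counted without a test. limma 3.58.1 (R 4.3.3) fitted tissue and genotype over 20971 genes with Benjamini-Hochberg adjustment, and was tested on simulated data. The number of arrays limits the precision. The factors, gene lists and rules were chosen with earlier results of these data known. Named genes were all 10 factors, paralogs past 2-fold, up to 3 largest differences per list and the 3 nearest profiles of each factor; other names were chosen after their values were seen. Alternatives were other thresholds, filters, probe set rules, centrings, a floor at the negative-control median, and limma with a trend or without the block.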

Additional observations from a re-analysis of the deposited data

Results flagged for a closer look

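Of the 10 factors, 5 differed in opposite directions in the tissues with at least a 2-fold gap between the differences, each from 1 array per group; the gap was not tested. Of the 9 that passed the level filter in both tissues 4 did so, against 8.17% of 18863 genes, and Trp63, at background in oviduct, is the other. For Trp63 the trachea difference exceeded the oviduct difference by 2.28, from 2.11 and -0.17. For Elf3 the gap was -1.61, from -1.38 and 0.23. For Foxa2 it was -1.22, from -0.44 and 0.78. For Nkx2-1 it was -1.16, from -0.76 and 0.40. For Foxa1 it was -1.03, from -0.81 and 0.22. Centred on the general epithelial genes of each tissue, Nkx2-1, Foxa1 and Foxa2 lay above 0 in both tissues.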

How the results depend on the processing

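Of 280 values of single factors under 7 alternatives, 269 kept their direction where called and their side of 2-fold, 8 newly passed it, 1 lost it and 2 reversed. Each factor had a single probe set, so the probe set rules could not change its value, and the level filters do not enter a difference. Most of the 269 were therefore fixed in advance and are no measure of stability. All 11 exceptions came from centring on the general epithelial genes: Foxa2 (0.86) and Elf3 (0.67) reversed between the null-labelled tissues. The count of factors past 2-fold in trachea, 3 as reported, was 6 at 1.5-fold and 5 with that centring. In oviduct it was 1 at 1.5-fold, against 0. Between WT tissues it was 4 at 1.5-fold and 4 with the centring, against 2, and between null-labelled tissues 4 at 3-fold, against 7. Over all genes in trachea, lower and higher calls numbered 1560 and 1276 at 2-fold, 2688 and 2386 at 1.5-fold, 869 and 616 at 3-fold, and 527 and 12025 with the centring. In oviduct they were 541 and 160 at 2-fold, 1028 and 556 at 1.5-fold, and 267 and 35 at 3-fold. Between WT tissues they were 931 and 1305 at 2-fold, 2139 and 2361 at 1.5-fold, 440 and 656 at 3-fold, and 606 and 2030 with the centring. Between null-labelled tissues these were 1229 and 1372, 2582 and 2706, 544 and 686, and 69 and 19047. In limma 0 factors passed under every alternative for genotype or tissue; without the block 2 genes passed for tissue. No paired analysis was possible because the labels give no replicate numbers to block on; the block in limma was the other factor, tissue or genotype. Signal over background limits Trp63, Sox2, Foxa1 and Grhl1 in oviduct.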

Other observations

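Of 17 other epithelial factors past the filter in oviduct, 1 was at least 2-fold higher and 1 lower. Tfcp2l1, a grainyhead relative of ducts, was at 8.85 in WT and 9.93 in null-labelled oviduct (2.10-fold). Sox4 was at 8.56 and 7.43 (2.20-fold lower). Sox21 differed by 0.97, Sox9 by 0.78, Pax8, the factor of the Mullerian tract, by 0.68 and Xbp1, a factor of secretory cells, by 0.67, beside 0.78 for Foxa2. Of 8 uterine gland genes past the filter 2 were at least 2-fold higher, Cxcl15 at 3.82 (5.41 in WT, below the negative-control median) and Aqp8 at 3.19. Prss28, Prss29 and Spink1, other genes of those glands, read between 4.81 and 6.02 on both oviduct arrays.

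By likeness of profile over the 4 arrays, each centred on its own mean, Ache, Pax9 and Col17a1 lay closest to Trp63, at root mean square distances of 0.12, 0.13 and 0.14, and 21 of 20971 genes lay within 0.25. Closest to Sox2 were Apod, the Y-linked Kdm5d and Prkcq, with 4 genes within 0.25. Closest to Foxa1 were Kdm5d, Uty, also on the Y chromosome, and Fosb, with 1 gene within 0.25. Those Y-linked genes mark the sex that goes with tissue here. Kcnj12, Duoxa1 and Cav3 were closest to Grhl1 (204 genes within 0.25), and Socs2, Eml4 and Naip2 to Elf3 (150 genes). Grhl2 and Spdef had 9409 and 5257 genes within 0.25, so their neighbours say little.

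Position was read from RefSeq gene order, with these genes chosen after their values were seen. Trp63 lies on chromosome 16, as does the targeted gene Gmnc, with 5 protein-coding genes between them. On the null-labelled trachea array Tprg and P3h2, which flank Trp63, differed by 2.36 and 1.03, while Cldn1, Cldn16, Tmem207 and Il1rap, nearer to Gmnc, differed by 0.04 to 0.38. In WT trachea Tprg was under the negative-control median. In oviduct Tprg, Trp63 and P3h2 differed by 0.21, -0.17 and -0.24, and Il1rap, next to Gmnc, by 0.95. Nkx2-1 and Foxa1 lie on chromosome 12 with 5 protein-coding genes between them, among them Pax9, which differed by 1.74 in trachea where Nkx2-1 and Foxa1 differed by -0.76 and -0.81.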
